A study of Mus musculus with 4 samples.

Results

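Expression of 9 genes that mark sympathetic neurons and adrenal chromaffin cells was read in fetal livers from dams on a control diet (CD) or a high-fat diet (HFD). The genes were chosen by name, and every non-control probe whose transcript belongs to one of them was used, which gave 13 probes for 9 of the 22909 genes with a named probe. They are the transcription factor genes Phox2a, Hand2 and Gata3, the catecholamine enzyme genes Th, Dbh and Pnmt, the granule and vesicle genes Chga and Slc18a1, and Prph, which encodes an intermediate filament of peripheral neurons. The 4 samples were RNA of fetal liver at 14.5 days post coitum (dpc), 2 from CD-fed and 2 from HFD-fed C57BL/6J dams, and the labels give the sex as female. The CD held 4.3% of energy as fat, 19.2% as protein and 67.3% as carbohydrate, and the HFD held 60%, 20% and 20%. The diets were given during gestation, no fetus carried an engineered allele, and the sources used here do not say how many fetuses or dams stood behind each array. With 2 arrays per diet the p-values measure the spread between these samples alone, and an exact permutation test of a single gene could not go below p = 0.333.

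Sympathetic neurons and chromaffin cells arise from neural crest cells that settle along the dorsal aorta and in the adrenal anlage. Phox2a, Hand2 and Gata3 act in the network that turns on noradrenergic genes in these cells. Tyrosine hydroxylase (Th) makes L-DOPA from tyrosine as the rate-limiting step of catecholamine synthesis, dopamine β-hydroxylase (Dbh) makes noradrenaline from dopamine, and Pnmt converts noradrenaline to adrenaline in chromaffin cells. Chromogranin A (Chga) is a core protein of secretory granules, and Slc18a1 loads amines into chromaffin granules. The adult liver receives sympathetic fibres, while the cell bodies of the neurons lie in ganglia outside it, and chromaffin cells lie in the adrenal medulla and in paraganglia.

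Promoter sequence is shown for Th, Dbh and Chga, the 3 genes whose signal differed most between arrays of the same diet. Each line gives the 250 bases before the transcription start, 5′ to 3′ on the coding strand, from the RefSeq promoter table of build GRCm38.p6, at chr7:142899996-142900245 on the minus strand for Th, chr2:27165257-27165506 on the plus strand for Dbh and chr12:102554691-102554940 on the plus strand for Chga. Capitals mark TGACGT, the longer TGACGTCA where it is complete, in Th and Chga, and ATTA on either strand in Dbh.
Th: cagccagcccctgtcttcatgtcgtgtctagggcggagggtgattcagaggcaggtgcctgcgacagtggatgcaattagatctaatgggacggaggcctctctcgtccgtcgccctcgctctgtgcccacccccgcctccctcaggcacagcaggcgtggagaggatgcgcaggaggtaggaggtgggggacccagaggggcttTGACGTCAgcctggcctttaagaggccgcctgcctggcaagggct
Dbh: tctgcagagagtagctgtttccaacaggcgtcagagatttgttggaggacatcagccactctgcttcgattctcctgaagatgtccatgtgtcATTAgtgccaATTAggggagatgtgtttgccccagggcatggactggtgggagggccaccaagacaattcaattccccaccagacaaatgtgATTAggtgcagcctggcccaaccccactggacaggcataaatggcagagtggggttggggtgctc
Chga: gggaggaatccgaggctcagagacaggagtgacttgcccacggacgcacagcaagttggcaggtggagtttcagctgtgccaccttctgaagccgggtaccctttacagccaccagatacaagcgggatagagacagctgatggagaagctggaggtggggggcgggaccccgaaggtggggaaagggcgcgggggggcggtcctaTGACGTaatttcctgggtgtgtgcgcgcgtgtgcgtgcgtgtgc
TGACGTCA is the cAMP response element, the site by which cAMP signalling turns on Th, and TGACGT is its shorter form. ATTA is the core bound by homeodomain proteins, the class to which Phox2a belongs. The Th promoter held the complete element 45 bases before the start, and the Chga promoter held TGACGT 44 bases before it. The Dbh promoter held neither form and had ATTA at 157, 147 and 65 bases before the start. ATTA, not marked there, also lay at 175 and 167 bases before the start in Th and at 39 in Chga. Searched on both strands of the same 250 bases in all 32851 promoters of the table, TGACGTCA was present in 1.55%, TGACGT in 6.47% and ATTA in 54.9%. TGACGT lies within TGACGTCA and, since that element reads the same on both strands, was found there in both directions. These matches describe the letters and not binding. Among the other genes, Gata3, Hand2, Phox2a and Prph matched the table, and Pnmt and Slc18a1 had no entry.

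The arrays were single-colour Agilent arrays, on which labeled RNA binds to printed probes and brighter spots stand for more of a transcript. They shared 1 slide and 1 scan, and 65.4% to 70.0% of the non-control spots were well above background. The scaled signal used below is a probe's intensity divided by the 75th percentile of its array, and the level is its log2. Signals are compared between arrays for the same probe and not between probes. The tissue label was borne out by the hepatoblast markers, since 9 of 9 had signal well above background throughout and Alb was the second brightest of them by mean level, at 283, 535, 370 and 372 times the 75th percentile on CD replicates 1 and 2 and HFD replicates 1 and 2. The 9 sympathoadrenal genes were also measurable. Their brightest probes were well above background on all 4 arrays for 9 of 9 genes, and of the 13 probes the dimmer Th probe alone fell short, on CD replicate 2 and HFD replicate 1. A bulk sample cannot tell fewer cells of a type from less RNA per cell.

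**Figure D1:**
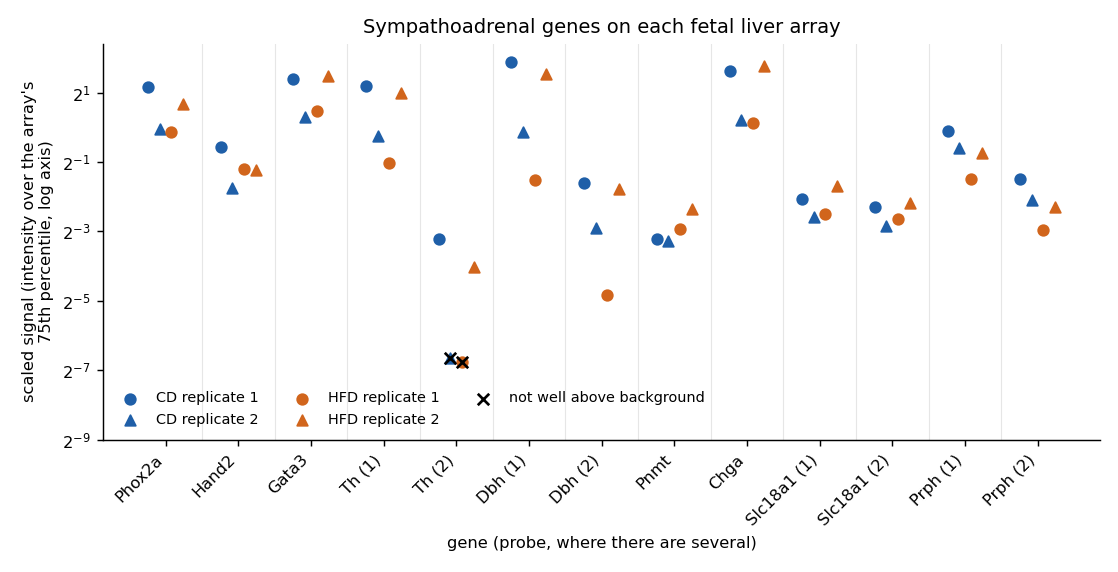
Scaled signal of each of the 13 probes on each array, with the signal (intensity over the array's 75th percentile) on a log axis and the probes of the 9 genes along the horizontal axis. Points are single arrays, blue for CD and orange for HFD, circles for replicate 1 and triangles for replicate 2, and crosses mark values not well above background. The 2 probes of Dbh spread over 10.5-fold and 9.40-fold from the highest to the lowest array, and those of Slc18a1 over 1.85-fold and 1.59-fold.

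Between the diets, no gene of the 9 was called. None of the 6 that could be tested after all filters passed both cutoffs in limma, namely an unadjusted p under 0.05 and a difference of at least 2-fold, and 0 of these 6 had an unadjusted p under 0.05. The methods' t-test also called 0 of them. Over all 41332 probes tested, 0.477% passed both cutoffs as lower in the HFD group and 0.293% as higher, and 0% had a Benjamini-Hochberg adjusted p under 0.05 in limma (smallest adjusted p = 1.00, with or without the CV filter), while 1383 probes had an unadjusted p under 0.05. The median log2 fold change (HFD minus CD) of the 9 genes was -0.05, against 0.04 over the 18345 genes above the 20th percentile of every array. The median of the 9 moved with each array, to 0.49 without CD replicate 1, -0.68 without CD replicate 2, 0.63 without HFD replicate 1 and -0.68 without HFD replicate 2. Of the 9, 5 were lower by the mean and 4 higher. Th, Dbh and Chga had a coefficient of variation (CV) over 50% within both diets on the linear scale and were left out on that ground here. The study's methods name a log scale for this filter, and with the CV of the log2 signal 9 of 9 genes were tested and 0 were called, as with the deposited table. All 13 probes lay above the 20th percentile of every array, and 8 of them were tested after the CV filter. Th, Dbh and Chga are given below from the same fit without that filter.

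The enzymes of noradrenaline synthesis had the widest range over the 4 arrays among the 9 genes. The brighter Th probe had a scaled signal of 2.29 and 0.83 on CD replicates 1 and 2, and of 0.49 and 1.96 on HFD replicates 1 and 2. The CD and HFD values overlapped, with 1 high and 1 low array in each diet. The log2 fold change was -0.49 (SE 0.85, 95% interval -2.76 to 1.77, limma without the CV filter). The dimmer Th probe read 0.11 on CD replicate 1 and 0.062 on HFD replicate 2, and was not well above background on the other two arrays. So both probes of Th ordered CD replicate 1 and HFD replicate 2 above the others.

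Dbh, a later enzyme of the pathway, read 3.71 and 0.90 in the CD samples and 0.35 and 2.89 in the HFD samples with its brighter probe. Its dimmer probe read 0.33 and 0.13, and 0.035 and 0.29. Both probes thus placed HFD replicate 1 lowest and CD replicate 1 highest, and the diets overlapped. HFD replicate 2 was 8.22-fold over HFD replicate 1 with the brighter probe and 8.32-fold with the dimmer one. CD replicate 1 was 4.11-fold and 2.45-fold over CD replicate 2. The log2 fold change between the diets was -0.86 (SE 1.24, 95% interval -4.18 to 2.46) for the brighter probe and -1.06 (SE 1.13, 95% interval -4.07 to 1.96) for the dimmer one, in limma without the CV filter. The direction rested on single arrays. Without HFD replicate 2, and without the CV filter, the differences of Dbh and Th were -2.38 and -1.49, past both cutoffs, although neither passed after adjustment (limma adjusted p = 1.00 for both). Without HFD replicate 1 they were 0.66 and 0.51, and without CD replicate 1 they were 0.16 and 0.24, so that the sign turned.

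Pnmt, the enzyme particular to adrenaline, ordered the arrays in another way than Th and Dbh. Its scaled signal was 0.108 and 0.103 in the CD samples and 0.132 and 0.194 in the HFD samples. Both HFD values lay above both CD values, as was so for 19.5% of all tested probes. The log2 fold change was 0.60 (SE 0.24, 95% interval -0.04 to 1.25), which did not pass the test.

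Chga, too, had 1 high and 1 low array in each diet. It read 3.08 and 1.15 in the CD samples and 1.09 and 3.39 in the HFD samples. The lower arrays of the diets lay close together, as did the higher ones, so that the difference between the means was 0.03 on the log2 scale (SE 0.75, 95% interval -1.97 to 2.02, limma without the CV filter). Slc18a1, the chromaffin transporter, moved less. Its brighter probe read 0.24 and 0.17 in the CD samples and 0.18 and 0.31 in the HFD samples, and its other probe 0.20 and 0.14, and 0.16 and 0.22. The log2 fold changes were 0.23 (SE 0.35, 95% interval -0.70 to 1.16) and 0.17 (SE 0.28, 95% interval -0.58 to 0.92), and the diets overlapped with both probes.

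Among the transcription factor genes, Phox2a read 2.24 and 0.97 in the CD samples and 0.92 and 1.60 in the HFD samples. Gata3, which also acts in kidney, trophoblast and T cell development, read 2.61 and 1.23, and 1.40 and 2.78. Both again had CD replicate 1 and HFD replicate 2 as the higher array of their diet. Their log2 fold changes were -0.28 (SE 0.51, 95% interval -1.62 to 1.07) and 0.14 (SE 0.51, 95% interval -1.23 to 1.51). Hand2, which is also used in heart and limb mesenchyme, read 0.68 and 0.30 in the CD samples and 0.44 and 0.43 in the HFD samples. Its HFD arrays lay between its CD arrays, and the log2 fold change was -0.05 (SE 0.43, 95% interval -1.18 to 1.07). Without CD replicate 1 the sign of both Phox2a (0.33) and Hand2 (0.54) turned, and without HFD replicate 2 that of Gata3 did (-0.36).

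Prph was the gene of the 9 with the clearest lower values in the HFD group. Its brighter probe read 0.93 and 0.67 in the CD samples and 0.35 and 0.60 in the HFD samples, and its dimmer probe 0.35 and 0.23, and 0.13 and 0.20. Both HFD arrays lay under both CD arrays with either probe, as for 11.1% of all tested probes. The log2 fold changes were -0.76 (SE 0.34, 95% interval -1.66 to 0.13) and -0.83 (SE 0.34, 95% interval -1.74 to 0.07), and neither passed the test. Without HFD replicate 2 the brighter probe was at -1.14 and past both cutoffs, with a limma adjusted p = 1.00.

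**Figure D2:**
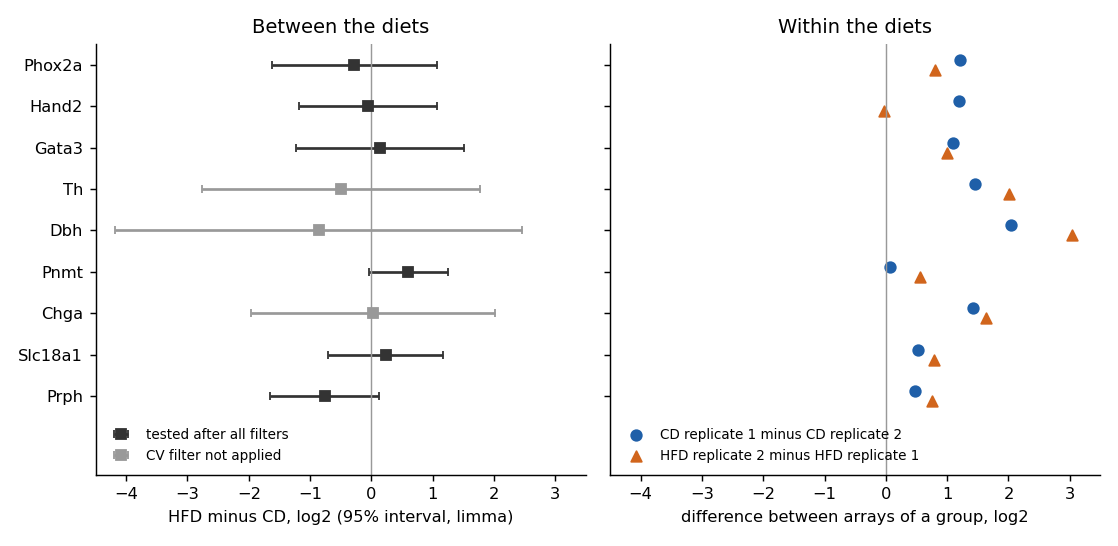
Left, log2 difference between the HFD and CD means of the 9 genes by their brightest probe, with the 95% interval from limma, grey where the CV filter was not applied. Right, on the same scale, the difference between the 2 arrays of each diet. All 9 intervals on the left cross 0, and on the right 9 of 9 genes were higher in CD replicate 1 than in CD replicate 2 and 8 of 9 were higher in HFD replicate 2 than in HFD replicate 1.

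The larger differences lay between arrays of the same diet, as for most genes on these arrays. For 7 of the 9 genes the larger gap within a diet exceeded the difference between the diet means. That was so for 77.9% of all 18345 genes, a like share. The exceptions were Pnmt and Prph. By their brightest probes, 9 of 9 were higher in CD replicate 1 than in CD replicate 2, as were 8197 of all 18345 genes. Of the 9, 6 were so by at least 2-fold, where 5.67% of all genes were. On HFD replicate 2, 8 of 9 were higher than on HFD replicate 1, as were 7831 of all 18345 genes. Of the 9, 3 were so by at least 2-fold, where 1.61% of all genes were. Th, Dbh and Chga met both conditions, and 0.431% of all genes did. The median of these gaps was 1.19 within the CD group and 0.80 within the HFD group for the 9 genes, against -0.06 and -0.03 on the log2 scale for all genes. These are descriptions of 4 arrays, each diet having 1 array with more and 1 with less of most of these transcripts.

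**Figure D3:**
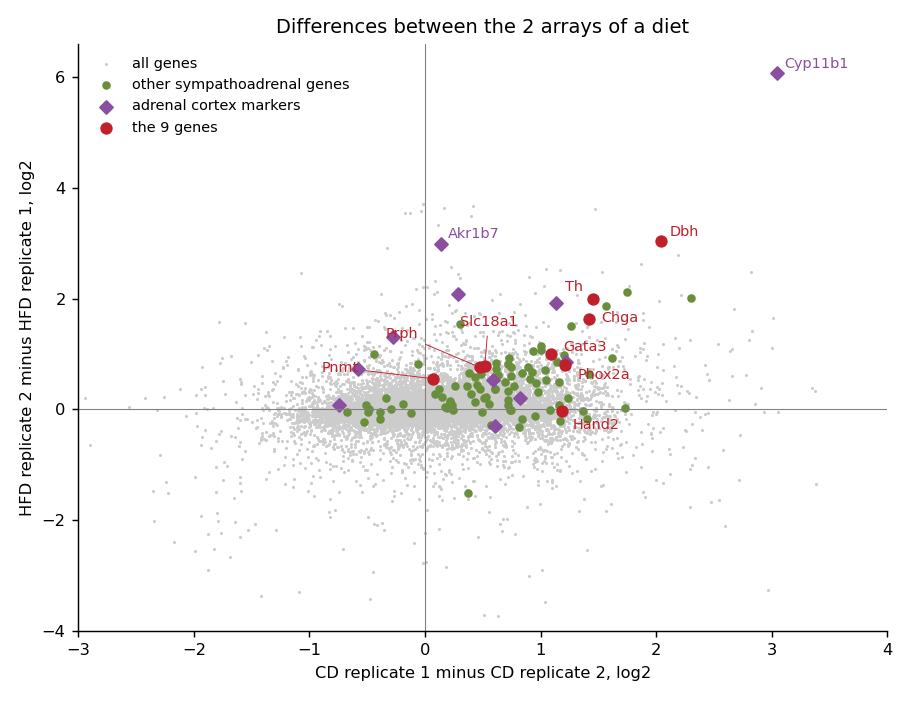
Difference between CD replicates 1 and 2 (horizontal axis) against that between HFD replicates 2 and 1 (vertical axis), both in log2, for the 18345 genes above the 20th percentile of every array. Each point is a gene by its brightest probe, and 15 genes lie outside the axes. Th, Dbh and Chga lie in the upper right, where both gaps are at least 2-fold, with Cyp11b1 of the adrenal cortex beyond them.

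Chga served as the reference for genes of like pattern, since its probe had the highest mean level over the 4 arrays. Likeness was the Euclidean distance over the 4 arrays between levels centred on their own mean, among 23930 probes well above background on all arrays. The 5 nearest genes were Col5a3 (distance 0.17), Methig1 (0.21), Tfap2b (0.25), Upk3a (0.26) and 8430426J06Rik (0.33). Tfap2b encodes a transcription factor of sympathetic and other neural crest derivatives, Col5a3 a fibrillar collagen chain and Upk3a a uroplakin of the urothelium. Of the 9 genes, Gata3 (0.52), Th (0.58) and Phox2a (0.68) lay nearest to Chga, and Dbh (1.40) and Pnmt (1.35) farthest, Dbh because its gaps were wider and Pnmt because its CD arrays hardly differed. With 4 arrays many genes can lie close together in this measure.

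A further 89 genes of the same cells were described from 8 lists. Of these, 82 were well above background on all 4 arrays by their brightest probe and 81 were tested. In limma, 3 passed both cutoffs as lower (Ina, Syn1 and Cplx1) and 1 as higher (Eya4), and 9 had an unadjusted p under 0.05. Over all 18192 genes tested by their brightest probe, 0.478% passed as lower and 0.286% as higher, and 2.84% had an unadjusted p under 0.05. The median log2 fold change was -0.24, against 0.04 over all genes. By the mean 65 genes were lower and 24 higher, where 7789 of all 18345 genes were lower and 10556 higher. In 18 of the 89 both HFD arrays lay under both CD arrays, and in 4 above, against 10.2% and 22.9% of all 18345 genes. The calls varied with the arrays used. The number lower was 10 without CD replicate 2, of which Ina was 1, and 13 without HFD replicate 2, with Ina, Syn1 and Cplx1 among them. Leaving out CD replicate 1 gave 0 lower, although the log2 fold changes of Syn1 (-1.33) and Cplx1 (-1.68) then stayed past 2-fold with an unadjusted p above 0.05. Leaving out HFD replicate 1 gave 1, Tac1, with Syn1 at -0.89, Cplx1 at -0.96 and Ina at -0.86. Eya4 was not called without CD replicate 2 (0.75) or HFD replicate 2 (0.85), and without CD replicate 1 it was called with Adrb3.

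The neuronal cytoskeleton and growth cone list, closest in kind to Prph, had the lowest median of the 8. Of its 16 genes, 15 were lower by the mean in the HFD group, as were 7789 of all 18345 genes. In 7 both HFD arrays lay under both CD arrays (10.2% over all genes), and the median log2 fold change was -0.61. Ina, which encodes the neuronal intermediate filament internexin, fell with a scaled signal of 1.71 and 1.31 in the CD samples and 0.52 and 0.83 in the HFD samples, a log2 fold change of -1.19 (SE 0.30, adjusted p = 1.00). The brightest genes of the list were Uchl1 (-0.25), a ubiquitin hydrolase of neurons, Stmn2 (-0.43), a microtubule regulator of growth cones, and Map1b (-0.42), a microtubule binding protein. None of these other three passed the test.

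The granule and vesicle list of 16 genes had a median of -0.29, with 13 lower, 2 of which passed the cutoffs. Over all 18345 genes, 7789 were lower by the mean. Syn1 (synapsin I) fell by 1.30 on the log2 scale (SE 0.32) and read 0.21 and 0.21 in the CD samples and 0.064 and 0.11 in the HFD samples. Cplx1 (complexin 1) fell by 1.46 (SE 0.40), from 0.12 and 0.16 to 0.036 and 0.071. Both act in vesicle release at nerve terminals. Chgb, the granule partner of Chga, read instead 6.65 and 1.35 in the CD samples and 1.26 and 5.08 in the HFD samples, and was named after its values were seen. The brightest genes of the list, Cplx2 (0.08), Cpe (-0.04) and Snap25 (-0.29), did not pass the test.

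Of the 12 further regulators of the lineage, 12 were higher in CD replicate 1 than in CD replicate 2. On HFD replicate 2, 9 were higher than on HFD replicate 1. Over all 18345 genes these counts were 8197 and 7831. Sox4 (-0.04) and Sox11 (-0.11), neural progenitor factors, were among the brightest genes of that list and did not pass the test. Eya4, a transcriptional coactivator, rose by its brighter probe, from 0.20 and 0.13 in the CD samples to 0.29 and 0.40 in the HFD samples, a log2 fold change of 1.1 (SE 0.32, adjusted p = 1.00). Its other probe gave -0.20, so that the probes disagreed.

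The 12 genes of catecholamine synthesis, transport and breakdown had a median of 0.09, and 0 of the 12 passed the cutoffs or had an unadjusted limma p under 0.05, and the methods' t-test called 0 of the 89 genes. Among its brightest genes, Qdpr, which recycles tetrahydrobiopterin, and Maob, which breaks down amines, are also liver genes, with log2 fold changes of 0.01 and 0.12. Slc6a2, the noradrenaline transporter, read 0.19 and 0.094 in the CD samples and 0.063 and 0.13 in the HFD samples, and was chosen after its values were seen. All 8 neuropeptide genes were lower by the mean, as were 7789 of all 18345 genes. Of the 8, 7 were well above background on all arrays. Their median was -0.52, and 0 of the 6 tested passed. Their brightest members were Penk (-0.10), Gal (-0.27) and Cartpt (-0.43), precursors of enkephalins, galanin and the CART peptide.

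The receptor lists held no gene past the cutoffs. The 9 neurotrophin and GDNF receptor genes had a median of -0.19 and the 9 adrenergic receptor genes a median of 0.08. Among the brightest were Gfra4 (0.55), Ngfr (-0.14) and Gfra2 (-0.19) in the former, and Adra2b (0.13) and Adra1b (-0.05) in the latter, which take up catecholamine signals on target cells such as hepatocytes. Of the 7 nicotinic and serotonin receptor genes, 3 were well above background on no array. Chrnb4 (0.14), Chrnb2 (-0.72) and Htr3a (-0.53) were the brightest, and none of the 4 tested passed the cutoffs.

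Markers of other tissues varied among the same arrays. Of 12 adrenal cortex markers, 11 were well above background on every array, and Cyp11b2, the aldosterone synthase, on none. Their summed scaled signal was 21.5 and 21.2 in the CD samples and 23.1 and 45.8 in the HFD samples. By the mean 12 of 12 were higher in the HFD group, Cyp11b2 included, with a median log2 fold change of 0.64. Of the 12, 11 lay above the 20th percentile of every array. All 18345 genes compared here did so, and 10556 of these were higher. In 4 of the 12 both HFD arrays lay above both CD arrays, against 22.9% of all genes. Cyp11b1, the last enzyme of glucocorticoid synthesis, read 0.46 and 0.055 in the CD samples and 0.031 and 2.11 in the HFD samples, and was named after its values were seen. It thus shared its higher arrays with Th, Dbh and Chga, and its HFD replicate 2 was 67.3-fold over its HFD replicate 1. Of the 12 markers, 8 were higher in CD replicate 1 than in CD replicate 2, and 3 by at least 2-fold. On HFD replicate 2, 11 were higher than on HFD replicate 1, and 5 by at least 2-fold. Both 2-fold conditions were met by 2 of the 12, and by 0.431% of all genes. Akr1b7 read 3.27, 2.98, 1.65 and 13.1 on the 4 arrays in the same order. Cyp11a1 and Nr5a1, which are also active in the gonad, rose in the HFD group by 1.87 (SE 0.52) and 1.20 (SE 0.31) on the log2 scale, and Cyp17a1 and Fdxr did not pass the test. Cyp11a1 and Nr5a1 lost the call without CD replicate 2 (1.27 and 0.90), and Nr5a1 also without HFD replicate 2 (0.94). The part of adrenal cells in the values of Th, Dbh and Chga was not tested.

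The summed signals of liver mesenchyme and heart markers were highest on CD replicate 1. Gene by gene, 7 of 10 mesenchyme and 5 of 8 heart markers were higher there than on CD replicate 2. In each list 1 was so by at least 2-fold. The median gaps were 0.36 and 0.26 on the log2 scale. The summed signal of 10 mesenchyme markers was 256 and 137 in the CD samples and 178 and 200 in the HFD samples, with 10 of 10 well above background. That of 8 heart markers was 60.3 and 33.0, and 39.4 and 46.9, with 8 of 8 well above background. Hepatoblast markers ran the other way within the CD group, at 1520 and 2331, and at 1853 and 1885 in the HFD group. Of 8 kidney and mesonephric duct markers, 7 were well above background on all arrays, with sums of 6.86 and 3.75 and of 7.22 and 7.34. Of 13 trophoblast markers with a probe, 11 were well above background on every array, with sums of 67.3 and 77.6 and of 47.8 and 50.6. By their single values these 13 differed more, with a median log2 fold change of -3.80 and 10 lower by the mean. In 8 of them both HFD arrays lay under both CD arrays, against 10.2% of all genes, and 5 of the 13 were tested after all filters. Of 8 erythroid markers 8 were well above background, with sums of 1213 and 1370 and of 1343 and 1530. The part of these tissues in the values of the 9 genes was not tested.

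Other neural markers were also read. Of 9 Schwann cell precursor and glia markers, 7 were well above background throughout, and their summed signal was 4.69 and 3.76 in the CD samples and 2.78 and 3.30 in the HFD samples. Their brightest gene was Fabp7, a lipid binding protein of glia, which passed the p cutoff with a log2 fold change of -0.82, short of 2-fold. Of 6 enteric and 8 sensory neuron markers, 5 and 6 were well above background throughout, and the sums were 2.44 and 1.89 against 1.76 and 1.94, and 5.14 and 4.32 against 5.21 and 4.79. Of 10 brain neuron markers, the summed signal was 1.67 and 1.28 in the CD samples and 1.32 and 1.84 in the HFD samples. The sum thus overlapped between the diets and was highest on HFD replicate 2. By their single values 9 of the 10 were lower by the mean and 1 higher, and 4 were tested. The flag for signal well above background was passed throughout by 3 of them. Neurod6, Tbr1, Gad1 and Slc17a6, all of forebrain or other central neurons, passed this flag on both CD arrays and on neither HFD array. With the dim arrays set at their lowest signal well above background, Tbr1 was 3.35-fold and Gad1 2.09-fold lower in the HFD group. On the same basis Neurod6 was 1.91-fold and Slc17a6 1.5-fold lower. Such values were taken only for genes passing the flag in a single diet, and kept only in that direction. Their direction thus follows from the choice of genes and is no evidence of a difference. These values depend on the processing. With normexp background correction the log2 fold changes were -0.67 for Tbr1 and -0.38 for Gad1, neither past the cutoffs. The measured difference of Tbr1 was -2.32 and that of Gad1 was -1.65 on the log2 scale, both past the cutoffs (limma adjusted p = 1.00), while a second Tbr1 probe gave 0.01, and Gad1 lost its call without CD replicate 1 (-2.07), CD replicate 2 (-1.22) or HFD replicate 1 (-0.94). Ina, Syn1 and Cplx1 fell, and Prph read lower without passing the test, on the same HFD arrays, and the part of central neurons in those values was not tested.

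**Figure D4:**
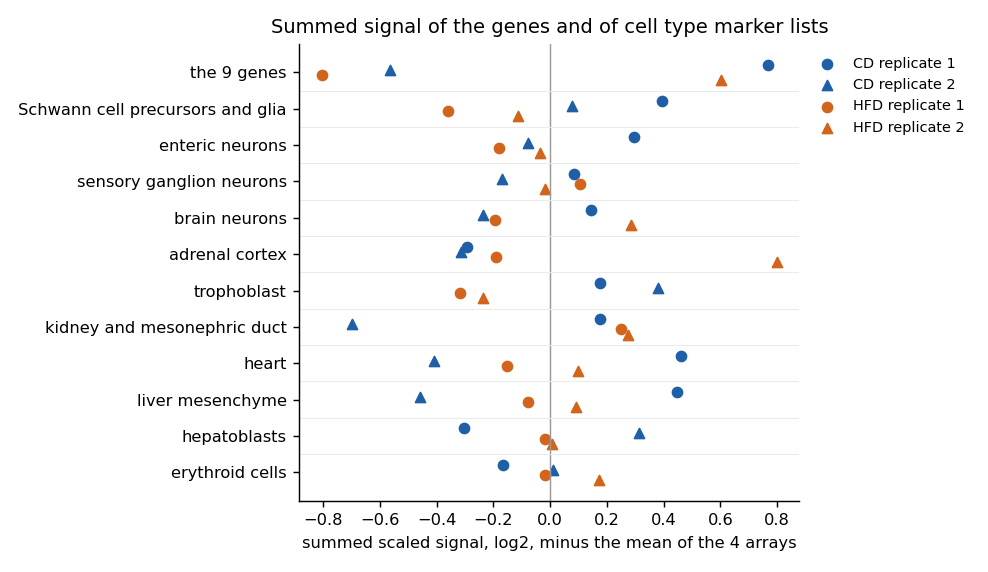
Summed scaled signal of the 9 genes and of each marker list on each array, plotted as log2 minus the mean of the 4 arrays, with blue for CD, orange for HFD, circles for replicate 1 and triangles for replicate 2. The sums of the 9 genes were 15.9 and 6.32 in the CD samples and 5.35 and 14.2 in the HFD samples, and enteric neuron markers had the same order of arrays with narrower gaps.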

How the data were processed

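Total RNA of fetal livers was hybridised as Cy3-labeled cRNA to single-colour Agilent arrays. The authors read the images with Feature Extraction 11.0.1.1, per the labels, and deposited an intensity per spot, background-subtracted and spatially detrended with no scaling between arrays, plus quality flags as scores of 0 or 1. A table of normalized signal deposited by the authors held 41471 probes, each value being the intensity over 1 constant per array.

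Here the spots of a probe were averaged on the log2 scale without flagged spots, and the array's 75th percentile was subtracted. Filters removed probes below the 20th percentile of an array (14980 of 56596), with all spots flagged, or with a linear CV over 50% within both diets (284), where the study's methods name a log scale. The remaining 41332 were compared between the diets by limma 3.58.1 (R 4.3.3) over the 4 arrays without covariates, with Benjamini-Hochberg adjustment over all tested probes. Probes were named through their transcripts in the RefSeq table of GRCm38.p6 (32994 of 56605 probes matched 1 symbol). Probe positions are left out because the array design used an earlier build. The probe with the highest mean level stood for a gene. Values were prepared with pandas 2.3.3 and numpy 2.4.6 under Python 3.11.15 and plotted with matplotlib 3.10.9, and the fit was tested on simulated data.

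Named were all 9 genes, and of each other list the 3 with the highest mean level, those past the cutoffs, those at least 2-fold apart without overlap, and the 5 genes most like the brightest of the 9. Genes of lists for other tissues were named where a result turned on them. A few genes under this rule are not reported here. The 9 genes and all lists were chosen with earlier results of these data known. The alternatives were quantile normalization, normexp (on the median brightness, as the mean was not used here), the deposited table, a signal floor, other filters, the methods' t-test, a replicate block and leaving out each array.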

Additional observations from a re-analysis of the deposited data

How the results depend on the processing

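When single arrays were left out, the number of the 9 genes past the cutoffs was 0 to 1 with the CV filter (Prph, without HFD replicate 2) and 0 to 3 without it (Dbh, Prph and Th, without HFD replicate 2), an alternative chosen after seeing the data. It was 0 under every other alternative run, the replicate block included. The median log2 fold change of -0.05 turned sign and ranged from -0.68 to 0.63 when single arrays were left out, and from -0.15 to -0.05 under the other alternatives. Without single arrays the log2 fold changes ranged from -0.88 to 0.33 for Phox2a, -0.65 to 0.54 for Hand2, -0.40 to 0.68 for Gata3, -1.49 to 0.51 for Th, -2.38 to 0.66 for Dbh, -0.79 to 0.85 for Chga and -0.16 to 0.63 for Slc18a1, while Pnmt (0.33 to 0.88) and Prph (-1.14 to -0.38) kept their sign. Quantile normalization turned that of Chga (-0.0044).

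Among the other 89 genes, 1 was past the cutoffs as higher and 3 as lower. Leaving out single arrays gave 0 to 2 and 0 to 13, normexp 0 and 1, the methods' t-test 0 and 0 with or without Welch's correction, and the mean over the probes of a gene 0 as higher. Of 16 alternatives, Ina passed the cutoffs in 12 and Syn1, Cplx1 and Eya4 in 10 each. Over all probes, against 121 higher and 197 lower, leaving out single arrays gave 190 to 843 and 383 to 466, normexp 13 and 35, no filter on dim probes 385 and 460, the methods' t-test 41 and 56, that test with Welch's correction 21 and 25, and a filter on signal well above background 71 as higher. The replicate differences of the 2 diets had r = -0.10 over 41332 probes, which cannot show whether the replicate numbers pair the samples. With the replicate block 177 probes were higher and 258 lower, with 0 calls among the 9 genes and the same 4 among the other 89. The call of Cyp11a1 held in 13 and that of Nr5a1 in 11 of 16 alternatives, and those of Tbr1 and Gad1 in 13 and 9. With 1 array left in a diet, that array was assumed to vary like the other diet. The number of arrays limits the precision throughout.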
